A study of Sus scrofa with 4 samples.

Results

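MicroRNAs (miRNAs) were compared between exosomes of the umbilical vein of IUGR piglets and those of normal piglets. IUGR, intrauterine growth restriction, is the failure of a fetus to reach its growth potential. The study measured small RNA in plasma exosomes of umbilical cord blood drawn at birth from newborn Yorkshire pigs (Sus scrofa). It covered vein and artery, IUGR and normal littermates, in 4 libraries, of which the 2 vein libraries are described here. The IUGR vein library was made from a pool of 3 IUGR piglets and the normal vein library from a pool of 3 normal piglets. No treatment or genetic change is given for either. The labels name only the vessel and a number, so each library's condition rests on the column letters, I for IUGR and N for normal.

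Of 517 rows in the vein table, 51 were left out: rows carrying the authors' prefix for predicted candidates, and miR-3168, whose sequences are likely those of library kit oligonucleotides. The other 466 rows held 7169 reads in IUGR vein and 35300 reads in normal vein, out of 16218 and 40691 reads in all. The rows left out held 55.8% of the reads in IUGR vein and 13.2% in normal vein, and their part in the ratios below was not tested. Each library was rescaled to its remaining reads, and values are given as reads per 10000 remaining reads. The 153 rows with at least 10 raw reads over both libraries were kept, and they hold 144 distinct sequences. Rows that share a sequence hold equal parts of the same reads. Among the 7 rows just inside that minimum, at 10 to under 11 reads, 3 had no read in IUGR vein, and among the 8 rows just outside it, at 9 to under 10 reads, 1 had none.

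One pooled library per condition leaves no replicate, so no test across piglets was possible and no difference below has a replicate check. Differences are given as ratios of IUGR vein over normal vein, with a 95% exact conditional binomial interval on rounded reads. The interval covers counting error only, and the reads, amplified by PCR without molecular identifiers, are not independent molecules. A row counts as higher or lower at a ratio of at least 2-fold. Depth limits IUGR vein most: 1 read was worth 1.39 per 10000 in IUGR vein, against 0.283 in normal vein, and 10 reads were reached by 77 kept rows in IUGR vein and by 141 in normal vein. Fewer vesicles of a kind and less of a miRNA per vesicle cannot be told apart in such bulk libraries.

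Exosomes are small vesicles that cells release into body fluids, and they carry miRNAs and proteins of the cell that made them. A miRNA is cut from a hairpin precursor and loaded into an Argonaute protein, where bases 2 to 8 from its 5′ end, the seed, pair with target messenger RNAs and repress them. The umbilical vein takes oxygen-rich blood to the fetus, and its plasma can hold vesicles of blood cells, vessel walls, placenta and fetal organs. Proteins that define exosomes were not measured in these libraries, so the vesicle label could not be checked against them.

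Mature sequences with large differences, and members of their families, are shown first. They are given as in the authors' deposited table, with T for U and the seed in capitals. The first set is chosen from the 10 rows that stayed at least 2-fold higher in IUGR vein under every scaling tried. It holds the liver miRNAs miR-122 and miR-192, whose sequence the table also lists as miR-215, together with miR-199a-3p of mesenchymal cells and miR-450b-5p of the X chromosome.
miR-122: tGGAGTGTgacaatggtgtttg
miR-192 and miR-215: aTGACCTAtgaattgacagcc
miR-199a-3p: aCAGTAGTctgcacattggtt
miR-450b-5p: tTTTGCAAtatgttcctgaat

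The next set holds members of the let-7 family, which share a seed and differ only in the bases after it.
let-7c: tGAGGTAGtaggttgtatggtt
let-7a: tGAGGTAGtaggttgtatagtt
let-7g: tGAGGTAGtagtttgtacagtt
let-7i: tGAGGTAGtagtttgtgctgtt

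The miR-25 and miR-92 family is shown because members with 1 seed stood on opposite sides in the comparison.
miR-92a: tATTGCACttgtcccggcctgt
miR-25: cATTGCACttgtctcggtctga
miR-92b: tATTGCACtcgtcccggcctcc
miR-363: aATTGCACggtatccatctgt

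The last set holds miRNAs with the lowest ratios in IUGR vein, of which miR-1306-5p, miR-484 and miR-339 are rich in G and C.
miR-342: tCTCACACagaaatcgcacccgt
miR-1306-5p: cCACCTCCcctgcaaacgtcc
miR-484: tCAGGCTCagtcccctcccga
miR-339: tCCCTGTCctccaggagctca
miR-15b-3p: tGAATCATtatttgctgctct

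Both libraries were dominated by miRNAs of red blood cells. miR-451, an erythroid miRNA that is cut by Argonaute 2 in place of Dicer, took 43.3% of the remaining reads in IUGR vein (interval 42.1% to 44.4%) and 35.8% in normal vein (interval 35.3% to 36.3%). In IUGR vein it was followed by miR-486 with 4.30%, miR-92a with 4.11%, miR-143-3p with 4.05% and miR-25 with 2.33% of the remaining reads. In normal vein it was followed by miR-92a with 8.44%, miR-486 with 7.67%, miR-25 with 4.76% and miR-191 with 3.26%. miR-122, the main miRNA of hepatocytes, was among the 10 most abundant rows in IUGR vein, at 1.90%, and not in normal vein. The 10 most abundant rows together held 66.8% of the remaining reads in IUGR vein and 67.9% in normal vein.

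Of the 153 rows, 35 (22.9%) were at least 2-fold higher in IUGR vein and 32 (20.9%) were at least 2-fold lower, which is 43.8% in either direction. The counting interval lay clear of 0 on the log2 scale for 28 of those 35 and for 16 of those 32. Over all sizes of difference it lay clear for 33 rows higher (21.6%) and 23 rows lower (15%). Another 9 rows had no read in IUGR vein, with 10 to 15 reads in normal vein, a depth at which no fold can be given, and they were not counted as lower. The median log2 ratio was -0.09 with those 9 ranked lowest. Over the 144 rows read in both libraries the median was 0.04, the quartiles were -0.87 and 0.96, and the range was -3.43 to 3.90. The lowest value is that of miR-193b, whose rows hold 0.5 reads each in IUGR vein and 26.5 in normal vein.

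**Figure D1:**
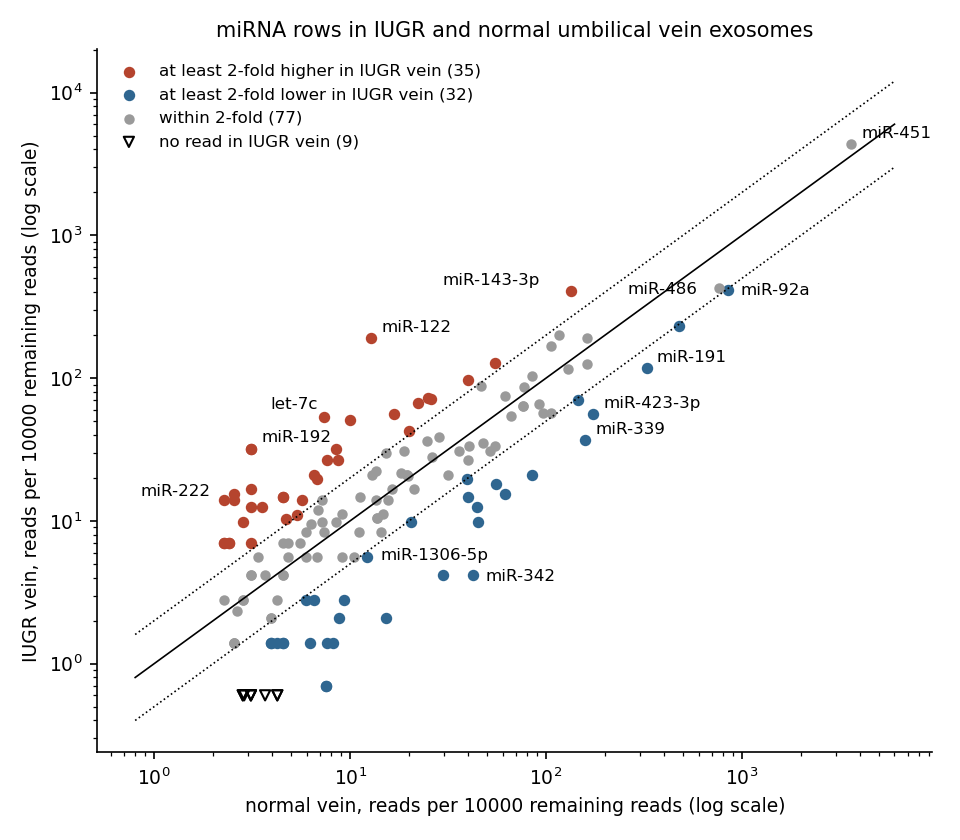
Reads per 10000 remaining reads of the 153 kept rows in normal vein (horizontal, log scale) and IUGR vein (vertical, log scale), with lines at equality and at 2-fold. The 35 rows at least 2-fold higher and the 32 at least 2-fold lower in IUGR vein are coloured, and the 9 rows with no IUGR read are drawn as triangles at the foot.

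A change of scaling moves every log2 ratio by the same amount. Over 6 scalings the shift was -0.97 with all rows kept, the left-out ones included, -0.70 with median-ratio scaling, -0.50 with TMM scaling, -0.00 with miR-3168 kept and 0.18 without miR-451. Under all 6 scalings, 10 rows with 9 sequences stayed at least 2-fold higher in IUGR vein and 25 rows with 23 sequences at least 2-fold lower. The interval under the rescaling used here was clear of 0 for all 10 of the higher and for 12 of the lower. The higher were miR-122, miR-192 and miR-215, let-7c, miR-222, miR-450b-5p, miR-127, miR-363, miR-199a-3p and miR-140-5p. The lower with a clear interval were miR-342, a longer form of miR-486, miR-1306-5p, miR-15b-3p, miR-339, miR-484, miR-425-5p, miR-423-3p, miR-9841-3p and miR-191, with miR-339 and miR-484 in 2 forms each.

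The liver miRNAs had the highest ratios. miR-122, which marks hepatocytes and acts in lipid metabolism, had 136 reads in IUGR vein and 45 reads in normal vein, from libraries of 7169 and 35300 remaining reads. Scaled, IUGR vein had 190 per 10000 and normal vein 12.7, which is 14.9-fold (log2 3.90, interval 3.40 to 4.42). It was the highest ratio of all kept rows. miR-192, a miRNA of liver, kidney and gut, had 23 reads in IUGR vein and 11 in normal vein, a 10.3-fold ratio (log2 3.36, interval 2.27 to 4.55), and the row of miR-215 holds an equal part of the same reads. miR-148a-3p, abundant in liver and also in many other tissues, did not share the difference, with 190 per 10000 in IUGR vein and 162 in normal vein (log2 0.23, interval -0.05 to 0.50). All rows of the liver list together held 4.56% of the remaining reads in IUGR vein and 1.83% in normal vein. Of its 4 kept rows 3 were higher and none was lower, beside 22.9% and 20.9% of all 153 rows. The list had a median log2 ratio of 3.36, and 2.39 with all rows kept, the lowest of the 6 scalings.

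The let-7 family, which rises as tissues differentiate and represses LIN28, HMGA2 and RAS transcripts, was higher in IUGR vein throughout its seed group. All 7 sequences with the seed GAGGTAG were at least 2-fold higher, beside 32 of all 144 sequences. Their log2 ratios lay between 1.05 and 2.86 with a median of 1.68. All therefore stay above 0 under the 6 scalings, whose largest shift was -0.97. let-7c stood out with 38.3 reads in IUGR vein and 26 in normal vein, or 53.5 and 7.37 per 10000, a 7.26-fold ratio (log2 2.86, interval 2.09 to 3.63). let-7g had 56.4 per 10000 in IUGR vein and 16.8 in normal vein (log2 1.75, interval 1.12 to 2.34). The log2 ratio was 1.79 for let-7i, 1.68 for let-7b, 1.63 for let-7a, 1.16 for let-7d-5p and 1.05 for let-7f, and the interval reached 0 for let-7d-5p and let-7f. The group held 2.02% of the remaining reads in IUGR vein and 0.554% in normal vein. Reads that fit several members are split between their rows, so the members are not independent of each other. The eighth kept row of the family, let-7d-3p, comes from the other arm of its hairpin, has another seed and had a log2 ratio of -0.70 (interval -2.66 to 0.80). The median of the 8 rows was 1.66, and 0.68 with all rows kept.

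**Figure D2:**
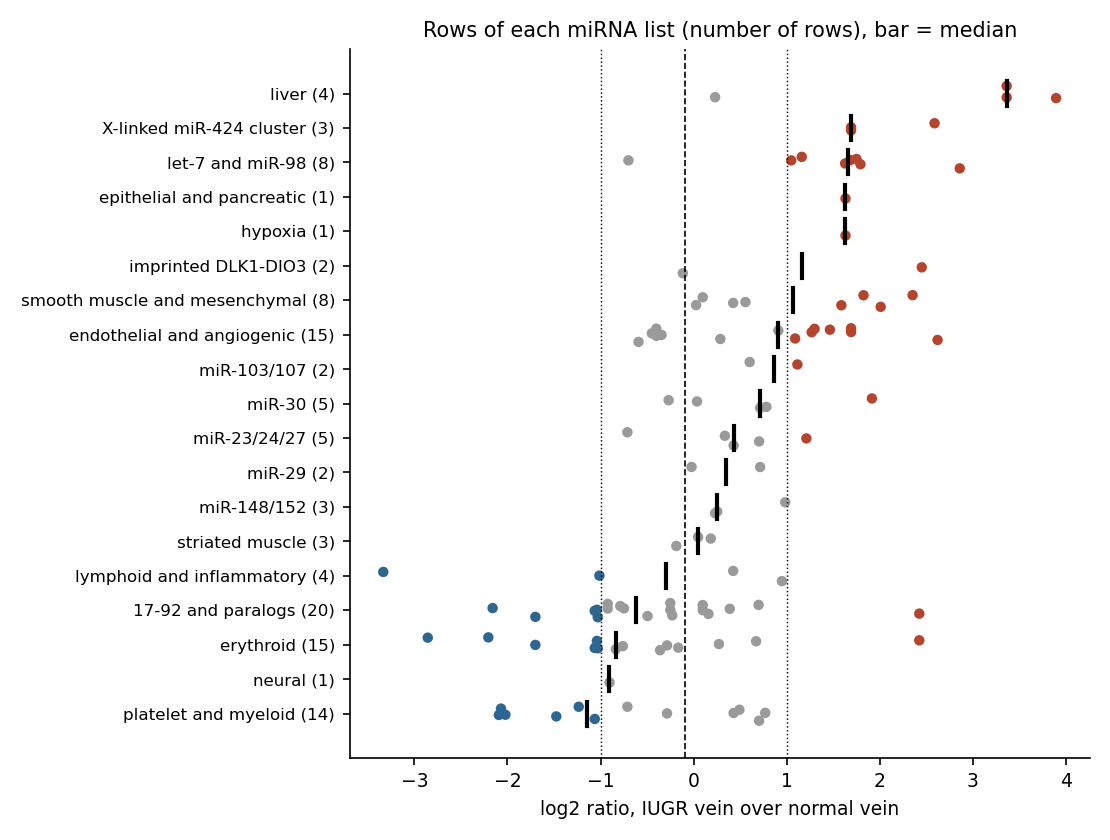
Log2 ratio of IUGR vein over normal vein (horizontal) for each kept row read in both libraries, by miRNA list, with the number of kept rows in brackets and a bar at the list's median. Dotted lines mark 2-fold and the dashed line the median of all kept rows, -0.09. Liver (median 3.36), the miR-424 cluster (1.69) and let-7 (1.66) stand highest. Platelet and myeloid stands at -1.15 with its 2 undetected rows ranked lowest, or -0.50 with these at their bound, and erythroid at -0.84, while the medians of the endothelial, striated muscle, miR-30, miR-29, miR-23, miR-103 and miR-148 family lists, above 0 here, are below 0 with all rows kept.

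miRNAs of smooth muscle and mesenchymal cells were higher in 4 of 8 kept rows and lower in none, beside 22.9% and 20.9% of all 153 rows. miR-143-3p, which keeps vascular smooth muscle in its contractile state, had 290 reads in IUGR vein and 475 in normal vein. It reached 405 per 10000 in IUGR vein and 135 in normal vein, a 3.01-fold ratio (log2 1.59, interval 1.37 to 1.80). Its partner on the same transcript, miR-145-5p, was level, with 16.7 per 10000 in IUGR vein and 16.4 in normal vein (log2 0.03, interval -1.01 to 0.94). miR-199a-3p, a fibroblast miRNA, had 51.1 per 10000 in IUGR vein and 10.01 in normal vein, a 5.11-fold ratio (log2 2.35, interval 1.67 to 3.09). miR-199a-5p from the same hairpin had a log2 ratio of 1.83, and miR-140-5p, a miRNA of cartilage and other mesenchyme, 2.01. The list's median was 1.07, and 0.10 with all rows kept. Its rows held 5.71% of the remaining reads in IUGR vein and 2.26% in normal vein.

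Among endothelial and angiogenic miRNAs 7 of 15 kept rows were higher and none was lower, beside 22.9% and 20.9% of all 153 rows. The median was 0.91, and -0.06 with all rows kept. The 7 include both rows of miR-424, which share 1 sequence, and the 15 rows hold 14 sequences. miR-126, the endothelial miRNA encoded in an intron of EGFL7, was higher in both arms. miR-126-5p had 96.3 per 10000 in IUGR vein and 39.9 in normal vein (log2 1.27, interval 0.83 to 1.69), and miR-126-3p had 71.1 and 25.8 in the same order (log2 1.46, interval 0.94 to 1.97). miR-222, which represses KIT in endothelium, had 10 reads in IUGR vein and 8 in normal vein (log2 2.62, interval 1.13 to 4.17). Its cluster partner miR-221-3p, with 12 reads in IUGR vein and 75 in normal vein, had a log2 ratio of -0.34. The log2 ratio was 1.30 for miR-130a and 1.09 for miR-100, and 0.91 for miR-125b, just under 2-fold. By contrast, miR-10a-5p, miR-10b, miR-99b, miR-125a and miR-221-3p lay between -0.59 and -0.34. The list held 5.61% of the remaining reads in IUGR vein and 3.76% in normal vein.

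Clusters known from placenta were measured from few reads. The X-linked cluster of miR-424 had 3 kept rows with 2 sequences, all higher, beside 22.9% of all 153 rows. miR-450b-5p had 11 reads in IUGR vein and 9 in normal vein (log2 2.59, interval 1.18 to 4.04). miR-424, which shares the seed of miR-15 and miR-16, had 10.5 reads in each of its rows in IUGR vein and 16 in normal vein (log2 1.69, interval 0.51 to 2.96). Of the imprinted DLK1-DIO3 cluster 2 of 23 rows in the table were kept. They were miR-127, made from the maternal allele and antisense to RTL1, with 10 reads in IUGR vein and 9 in normal vein (log2 2.45, interval 1.00 to 3.93), and miR-381-3p with a log2 ratio of -0.12. miR-210, the main hypoxia-induced miRNA, had 5 reads in IUGR vein and 8 in normal vein, a ratio of 3.08-fold whose interval reached 0 (log2 1.62, interval -0.34 to 3.42). miR-203a-3p of epithelia had the same reads and the same ratio.

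Single members of other families were higher too. miR-26a, a repressor of EZH2, had 67.0 per 10000 in IUGR vein and 22.1 in normal vein, a 3.03-fold ratio (log2 1.60, interval 1.05 to 2.14). miR-30e-5p had a log2 ratio of 1.92 (interval 1.07 to 2.75), while miR-30d (0.04) and miR-30b-5p (-0.27) were near level. The 5 kept rows of miR-30 had a median of 0.71, which was -0.26 with all rows kept. miR-27b-3p had 128 per 10000 in IUGR vein and 55.1 in normal vein (log2 1.21, interval 0.84 to 1.58), while miR-23a had a log2 ratio of -0.71, in a family list whose median of 0.43 was -0.54 with all rows kept. miR-21, which is abundant in blood cells and many tissues, had 199 per 10000 in IUGR vein and 117 in normal vein, under 2-fold (log2 0.77, interval 0.49 to 1.05), and its direction turns with all rows kept. The striated muscle list held 0.325% of the remaining reads in each library, and its median of 0.05 also turns with all rows kept.

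The erythroid list was divided. Of its 15 kept rows 1 was higher, 6 were lower and 8 were within 2-fold, with a median of -0.84. Over all 153 rows 22.9% were higher and 20.9% lower. miR-451 was slightly higher, at 4329 per 10000 in IUGR vein and 3584 in normal vein (log2 0.27, interval 0.22 to 0.33), and miR-144, from the same cluster, likewise at 169 and 106 per 10000 (log2 0.67, interval 0.36 to 0.97). Both directions turn with all rows kept and with median-ratio scaling, and that of miR-451 also with TMM. In contrast, miR-486, encoded within the erythroid gene ANK1, had 430 per 10000 in IUGR vein and 767 in normal vein (log2 -0.84, interval -1.01 to -0.66). miR-92a had 411 per 10000 in IUGR vein and 844 in normal vein, 2.05-fold lower (log2 -1.04, interval -1.21 to -0.86). miR-25 had 233 per 10000 in IUGR vein and 476 in normal vein, 2.04-fold lower (log2 -1.03, interval -1.27 to -0.80). As a whole the list held 59.1% of the remaining reads in IUGR vein (interval 58.0% to 60.3%) and 62.6% in normal vein (interval 62.1% to 63.1%).

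On the platelet and myeloid list 6 of 14 kept rows were lower and none was higher, beside 20.9% and 22.9% of all 153 rows. The list had a median of -1.15. Of those 14 rows 2 had no read in IUGR vein, and the median is -0.50 with these at the bound that 3 counts allow. miR-191 had 84 reads in IUGR vein and 1150 in normal vein, or 117 and 326 per 10000, 2.78-fold lower (log2 -1.48, interval -1.81 to -1.15). miR-223, the miRNA of neutrophils and platelets, had 69.7 per 10000 in IUGR vein and 146 in normal vein, 2.09-fold lower (log2 -1.06, interval -1.51 to -0.64). miR-339 had 26.5 reads in IUGR vein and 557 in normal vein, 4.26-fold lower (log2 -2.09, interval -2.68 to -1.51), and 4 of the 6 lower rows are forms of miR-339. miR-142-5p, a miRNA of all blood cells, lay within 2-fold at a log2 ratio of -0.29. Above 0 and within 2-fold were miR-21 at 0.77 with a clear interval, miR-24-3p at 0.70, miR-142-3p at 0.49 and miR-27a at 0.43, and these 4 turn with all rows kept. The list held 6.17% of the remaining reads in IUGR vein and 10.3% in normal vein.

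Of the lymphoid and inflammatory list 2 of 4 kept rows were lower and none was higher, beside 20.9% and 22.9% of all 153 rows. The list had a median of -0.29. miR-342, a leukocyte miRNA encoded in the gene EVL, had 3 reads in IUGR vein and 149 in normal vein, a log2 ratio of -3.33 (interval -5.63 to -1.76). miR-150, which marks mature lymphocytes, had 19.5 per 10000 in IUGR vein and 39.4 in normal vein, 2.02-fold lower (log2 -1.01, interval -1.92 to -0.22). The other members lay above 0 and within 2-fold, miR-181a at a log2 ratio of 0.95 and miR-146a-5p at 0.43, and both turn with all rows kept. The list held 0.488% of the remaining reads in IUGR vein and 0.973% in normal vein.

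**Figure D3:**
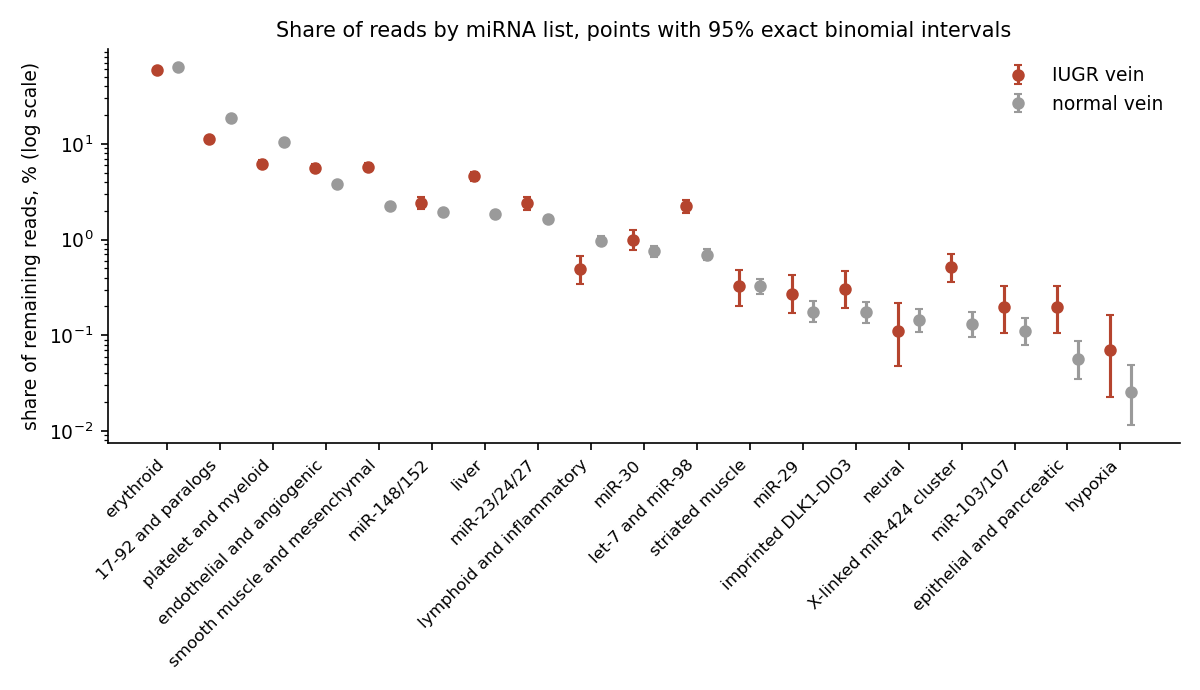
Share of the remaining reads (vertical, log scale) held by all table rows of each miRNA list in IUGR vein and in normal vein, 1 library each, with 95% exact binomial intervals that cover counting error only. IUGR vein is above normal vein for liver (4.56% against 1.83%) and let-7 (2.24% against 0.696%), and below it for platelet and myeloid (6.17% against 10.3%).

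Many of the lowest ratios belong to miRNAs in no list. Of the 47 kept rows in no list 6 were higher and 16 were lower, beside 35 and 32 of all 153. miR-1306-5p, encoded at DGCR8 in humans, had 3 reads in IUGR vein and 105 in normal vein (log2 -2.83, interval -5.13 to -1.24). miR-484 had 15.3 per 10000 in IUGR vein and 62.0 in normal vein, 4.04-fold lower (log2 -2.02, interval -3.04 to -1.15). miR-423-3p had 55.8 per 10000 in IUGR vein and 173 in normal vein, 3.10-fold lower (log2 -1.63, interval -2.13 to -1.17). The pig miRNA miR-9841-3p had 13 reads in IUGR vein and 196 in normal vein (log2 -1.61, interval -2.55 to -0.81). miR-425-5p had 9 reads in IUGR vein and 156 in normal vein, 3.52-fold lower (log2 -1.82, interval -2.97 to -0.85), beside miR-191, which lies within 10 kb of it.

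Ratios were lowest among sequences rich in G and C. Across the 31 sequences with at least 60% G and C, 2 were higher and 14 lower. Their median was -1.70 on the log2 scale when those without an IUGR read were ranked lowest. Such unread sequences, miR-1307 and miR-1343 among them, had bounds at 3 counts between -0.02 and 0.56. Placed at these bounds, they leave the 14 lower as a minority of the 31, so the median would lie within 2-fold. Of all 144 sequences 32 were higher and 30 lower. Across the 22 sequences with 40% to under 45%, 9 were higher and none was lower, with a median of 0.71. The medians were 0.24 under 40%, 0.39 at 45% to under 50%, -0.39 at 50% to under 55% and -0.09 at 55% to under 60%. Over the 135 sequences read in both libraries the log2 ratio and the share of G and C had a Pearson correlation of -0.43 and a Spearman correlation of -0.43. It was -0.50 and -0.49 over the 89 sequences with at least 30 reads. These are descriptions across sequences of the same libraries, which share depth and scaling. Length had no such relation, with a Spearman correlation of -0.02. Sequences with at least 60% G and C held 6.58% of the remaining reads in IUGR vein and 14.8% in normal vein. The mean G and C share of all remaining reads was 43.2% in IUGR vein and 46.4% in normal vein. The part of base composition in the single ratios was not tested. The artery libraries, processed the same way, had a Pearson correlation of -0.46 over 109 sequences.

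**Figure D4:**
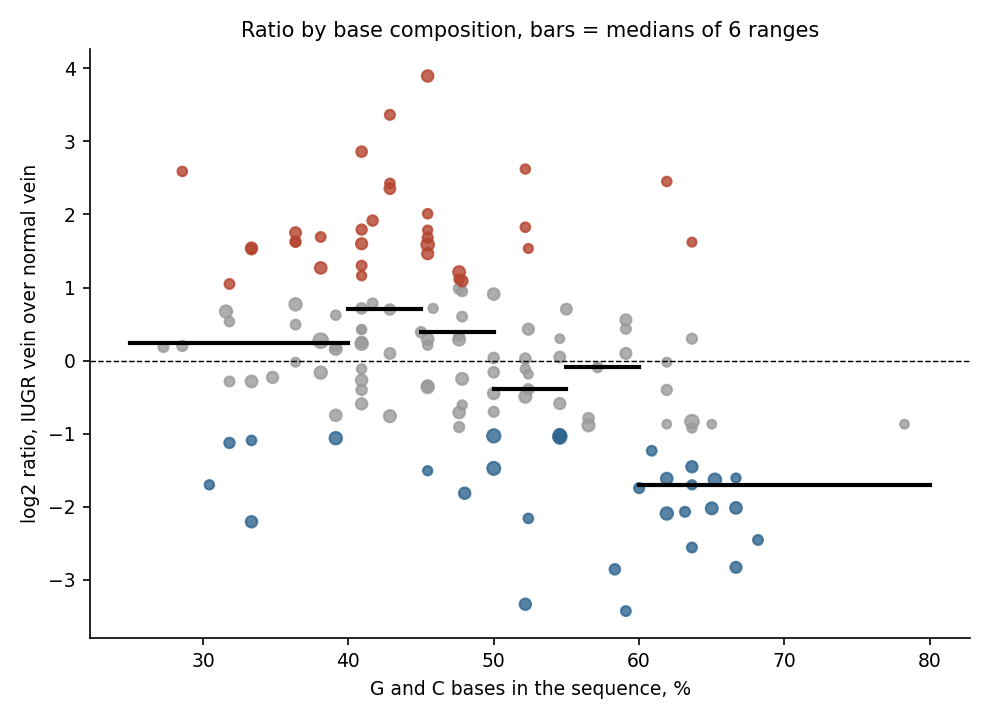
Log2 ratio of IUGR vein over normal vein (vertical) against the share of G and C bases (horizontal, %) for the distinct sequences read in both libraries, larger points having more reads. Bars are medians of 6 ranges, undetected sequences ranked lowest, and the median is 0.71 at 40% to under 45% and -1.70 at 60% or more.

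Members of a seed group did not all lie on the same side. The seed ATTGCAC was carried by 6 sequences, of which 5 were lower and 1, miR-363, was higher. Of all 144 sequences 30 were lower and 32 higher. The lower ones were miR-25, miR-32, miR-92b and 2 forms of miR-92a. The interval reached 0 for miR-32 and for the form of miR-92a ending in TGA (-2.43 to 0.05). miR-363, from the X-linked paralog of the miR-17-92 cluster, had 12 reads in IUGR vein and 11 in normal vein (log2 2.43, interval 1.12 to 3.75), against -1.04 for miR-92a. miR-92b had 1 read in IUGR vein and 16 in normal vein, and its interval reached 0 (log2 -1.70, interval -7.09 to 0.99). The group held 6.74% of the remaining reads in IUGR vein and 13.5% in normal vein. In the group with the seed AGCAGCA, miR-424 had a log2 ratio of 1.69 while miR-15b, miR-16 and miR-15a lay between -0.76 and -0.16. The 6 sequences with the seed AAAGTGC, among them miR-17-5p, miR-20a and miR-93, were all within 2-fold, with a median of -0.08. All 20 kept rows of miR-17-92 and its paralogs, with 17 sequences, had a median of -0.62, which stayed below 0 under all 6 scalings. Of these rows 1 was higher and 5 were lower, 2 of them forms of miR-92a. The share of lower rows is near the 20.9% of all 153 rows, of which 22.9% were higher.

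Neighbouring miRNA genes were read from the RefSeq table of assembly Sscrofa11.1, which differs from the build of the files, so that only neighbourhood was used. Of the 153 kept rows 127 matched, and 17 groups of genes no more than 10 kb apart held more than 1 kept miRNA. Point ratios lay apart within some groups, and whether neighbours share 1 transcript was not tested. In the miR-17-92 cluster the log2 ratio was 0.70 for miR-18a, 0.16 for miR-20a, -0.23 for miR-19a and -0.25 for miR-17-5p. The intervals of these reached 0. It was -0.75 for miR-19b and -1.04 for miR-92a, with intervals below 0. Reads of miR-19b and miR-92a can also come from the X-linked paralog, and the row of miR-17-5p shares its sequence with miR-106a of that paralog. let-7c, at 2.86, lies beside miR-99a, at 0.29. By contrast, miR-191 and miR-425-5p, at -1.48 and -1.82, and miR-15a and miR-16, at -0.16 and -0.36, were close to each other.

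A miRNA hairpin gives 2 arms, of which usually 1 is kept and the other degraded. Both arms were kept for 14 hairpins. The arm with fewer reads was lower than its partner in 7 and higher in 7, with a median difference of -0.11 on the log2 scale. For 3 hairpins the interval of the difference excluded 0. miR-15b-3p had 7 reads in IUGR vein and 159 in normal vein (log2 -2.21), against 41 and 342 for miR-15b (log2 -0.76), a difference of -1.45 (interval -2.88 to -0.23). Its share of the hairpin's reads was 14.6% in IUGR vein and 31.7% in normal vein. miR-140-5p exceeded miR-140-3p by 1.91 (interval 0.25 to 3.52), with 31.0% of the hairpin's reads in IUGR vein and 10.7% in normal vein. miR-423-5p was lower by less than miR-423-3p, a difference of 0.75 (interval 0.05 to 1.44). For miR-126, with 42.5% of reads on the 3p arm in IUGR vein and 39.2% in normal vein, the difference was 0.20 (interval -0.49 to 0.88). A shift of scaling does not change these differences within a hairpin.

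**Figure D5:**
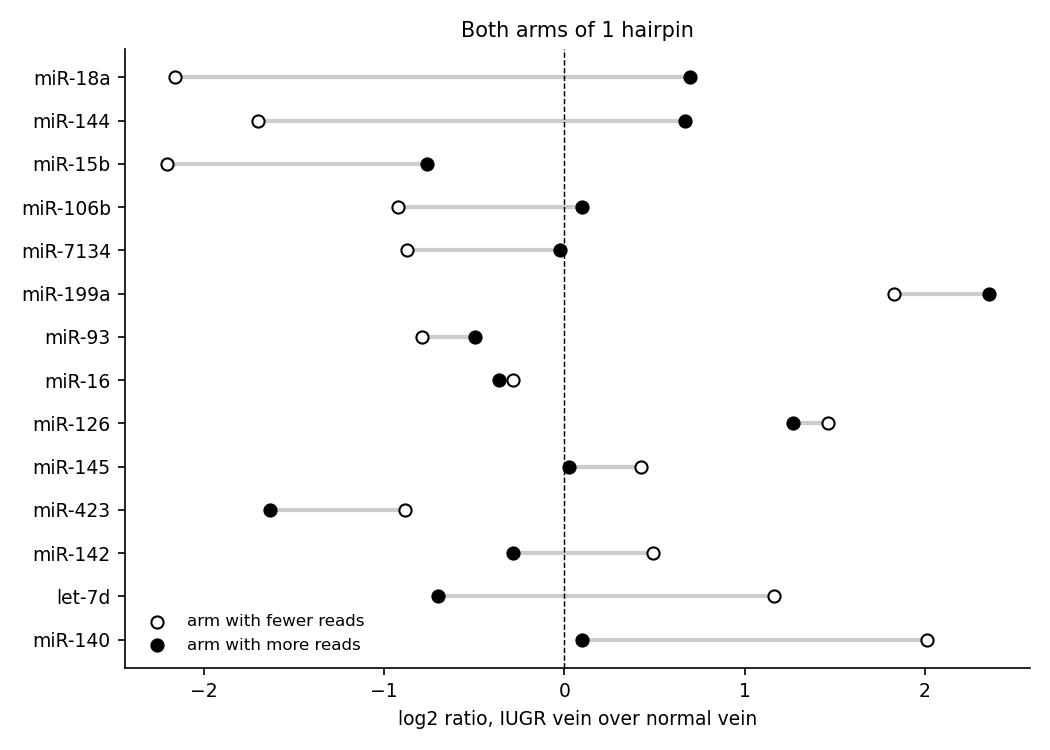
Log2 ratio of IUGR vein over normal vein (horizontal) for both arms of the 14 hairpins with both arms kept, the arm with fewer reads as an open point and the other as a filled one. The widest gaps, miR-18a and miR-144, rest on 1 read of the open arm in IUGR vein, and the interval of the difference excludes 0 for miR-15b, miR-423 and miR-140.

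Forms of 1 miRNA that differ at their ends mostly stood together. The 4 forms of miR-339 read in both libraries had log2 ratios between -2.09 and -1.23, and the fifth had no read in IUGR vein and 10.17 reads in normal vein. Both forms of miR-484 were lower (-2.02 and -1.45). miR-92a ending in TGT and its form ending in TGA had log2 ratios of -1.04 and -1.06. The ratios of miR-486 lay further apart: its form of 24 bases, 2 longer than the main one, had 1.5 reads in IUGR vein and 53.5 in normal vein (log2 -2.86, interval -5.54 to -0.53), against -0.84 for the form of 22 bases. That interval holds the ratio of the main form, and the difference between the forms was not tested.

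The artery libraries, 1 pool of 3 IUGR piglets and 1 pool of 3 normal piglets, were processed the same way and share no library with the vein. There 52 of 126 kept rows (41.3%) were higher and 52 (41.3%) lower in IUGR artery. Of the 101 rows kept in both vessels 17 were higher in both, 18 lower in both, 2 higher in vein and lower in artery (miR-27b-3p and miR-202-5p), and 0 lower in vein and higher in artery. The 17 make up 17 of 25 higher in vein and 17 of 27 higher in artery, and the 18 make up 18 of 18 lower in vein and 18 of 52 lower in artery. miR-122 had a log2 ratio of 3.90 in vein and 3.56 in artery, and miR-192 had 3.36 and 3.73. let-7c, at 2.86 in vein, had 0.38 in artery, and miR-451, at 0.27 in vein, had -1.90 in artery. Whether vein and artery differ in these ratios was not tested, since each rests on 1 library per condition.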

How the data were processed

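Small RNA of umbilical vein plasma exosomes was analysed from 1 pooled library per condition. Per the labels' protocols, plasma was cleared by centrifugation, passed through a fine filter and ultracentrifuged, and TruSeq small RNA libraries were sequenced as single reads of 36 bases. The submitters' processing notes name Sscrofa 10.2 as genome build. Aligner and counter: not given in the sources used here. Per the file headers, the authors' raw columns are reads, and their values are estimated counts, with reads that fit several rows split into fractions. Another 12 columns of per-sample values were not used, the authors' normalized ones among them.

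Predicted candidates and miR-3168 were left out, 55.8% of IUGR vein reads and 13.2% of normal vein reads. The other rows were rescaled to their sum, and rows with at least 10 reads over both libraries were kept. Reads were rounded for the intervals. A run on simulated reads checked the code only, since these were whole reads drawn under the counting model that the interval assumes. The deposited fold and p-value columns were not used. A read total is no depth of sequencing, since the tables hold named rows only.

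miRNA lists were matched by miRNA number. The named miRNAs are 1 row per mature miRNA: the 12 highest and 12 lowest by the interval bound nearest to 0, the 8 most abundant of each library, and of each of 19 lists the members at least 2-fold apart and the 3 most abundant. Other rows named, such as cluster partners, arms and end forms, were chosen after their values were seen. The members and lists were chosen with earlier results of these data known. Alternatives were other scalings (edgeR 4.0.16 in R 4.3.3 for TMM), minimums, a pseudocount of 1 and summed rows. Python 3.11.15, pandas 2.3.3, scipy 1.17.1 and matplotlib 3.10.9 were used.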

Additional observations from a re-analysis of the deposited data

Results flagged for a closer look

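The rows left out, predicted candidates and miR-3168, are outside the measurement above and held 55.8% of the reads in IUGR vein (interval 55.03% to 56.6%), against 13.2% in normal vein (interval 12.9% to 13.6%). They held 38.8% in IUGR artery and 46.0% in normal artery. The most abundant of them had 4763 reads in IUGR vein and 2151 in normal vein. Their part in the ratios of the other rows was not tested.

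For 8 miRNAs the counting intervals of the single library ratios lay clear of 0 above it in vein and below it in artery, and the difference between the vessels was not tested. miR-450b-5p had a log2 ratio of 2.59 in vein, while in artery it had 0 reads in IUGR piglets and 4 in normal piglets. miR-424 had 1.69 in vein, while in artery it had 0.5 reads in IUGR piglets and 5.5 in normal piglets. miR-202-5p had 1.54 in vein and -1.21 in artery. miR-27b-3p had 1.21 in vein, from 91.5 reads in IUGR and 194.5 in normal piglets, and -1.02 in artery, from 51.5 reads in IUGR and 63 in normal piglets. Within 2-fold in vein were miR-125b at 0.91 (-0.48 in artery), miR-21 at 0.77 (-1.84), miR-144 at 0.67 (-2.21) and miR-451 at 0.27 (-1.90), and the vein direction of these 4 turns with all rows kept.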

How the results depend on the processing

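The counts of rows, 35 higher and 32 lower with a median log2 ratio of -0.09, depended on the scaling. With all rows kept they were 16 higher and 69 lower (median -0.95), and with median-ratio scaling 15 and 56 (median -0.79). TMM scaling gave 27 higher and 48 lower (median -0.59). The median was 0.085 with scaling without miR-451 and 0.032 with rows of 1 miRNA summed. It was 0.10 with undetected rows at their bound and 0.043 with rows read in both libraries. In these 4 settings the counts were within 1.5 times of 35 and 32. The last 2 were chosen after seeing the data. With no minimum 100 rows were higher (median -0.87), with a minimum of 30 reads 19 were higher and 21 lower (median 0.027), and with 10 reads in each library 22 and 11 (median 0.24). These minimums change which rows enter. The shift with all rows kept is set by the shares of reads left out, 55.8% in IUGR vein and 13.2% in normal vein. Why these shares differ, and the cause of the other scaling shifts, was not tested. No named ratio of at least 2-fold changed sign. The scalings could not have made one do so, since the largest shift, -0.97, is less than 2-fold. Of the 70 named miRNAs, 784 values under alternatives stayed within their counting interval and 84 left it. Those 84 were 38 with all rows kept, 27 with median-ratio scaling, 16 with TMM scaling and 3 without miR-451. The minimums and the handling of undetected rows cannot move a single named ratio, so the 784 is no measure of stability. A planned scaling by the authors' normalized columns was not run. No paired analysis was possible because each condition has 1 vein library and the label numbers name no condition. Depth limits miRNAs of few reads: 3 counts were worth 4.18 per 10000 in IUGR vein and 0.850 in normal vein, and the 313 rows under the minimum held 2.21% of remaining reads in IUGR vein and 1.60% in normal vein.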
